A study of Mus musculus with 13 samples.

Results

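The miR-181 family of mouse microRNAs (miRNAs) was described across 13 small RNA libraries of extracellular vesicles. The family was defined by name, as the 5p arms mmu-miR-181a-5p, mmu-miR-181b-5p, mmu-miR-181c-5p and mmu-miR-181d-5p (written below without the mouse prefix), and all 4 had a row in both count tables, among 1164 mature miRNAs in the table of cultured cells and 1354 in the table of plasma (1452 different names in all). The members were chosen with earlier values of these libraries known, including a difference in miR-181a-5p between the plasma groups. Levels, shares and fold changes of the members are therefore given as a description and carry no test.

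C26 is a colon adenocarcinoma line from Balb/C mice, injected to model cachexia, in which muscle is lost as a tumour grows. Vesicles (TMVs) that cultured C26 cells shed into medium without serum during 48 h gave 3 libraries. Plasma vesicles gave 6 libraries from Balb/C mice labelled cachectic, killed on day 14 after C26 cells were injected under the skin of the back, and 4 from Balb/C mice labelled healthy. The labels used here name neither the age and sex of the mice nor a sham injection of the controls, and the descriptions of control replicates 2 and 3 each carry 2 numbers whose meaning is not stated. No genotype or transgene is named for any group, and plasma vesicles come from many cell types at once. Fewer vesicles from one source and less miRNA per vesicle cannot be told apart in such libraries.

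An miRNA guides a repressor complex to messenger RNAs mainly through its seed, bases 2 to 8 from the 5′ end. The miR-181 family is known for its high level in the thymus and in developing lymphocytes, where miR-181a tunes the sensitivity of the T cell receptor by repressing phosphatases, and for a part in myoblast differentiation through repression of the homeobox protein Hox-A11. It is also abundant in brain.

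The mature sequences are printed because the whole comparison of members rests on how they differ outside the seed, which is in capitals. All are RefSeq entries on GRCm38.p6, and the 4 names were the only mature names in that table with this seed.
miR-181a-5p: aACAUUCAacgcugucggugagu
miR-181b-5p: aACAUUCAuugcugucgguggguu
miR-181c-5p: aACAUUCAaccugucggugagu
miR-181d-5p: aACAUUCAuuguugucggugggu

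Counted from 1 at the 5′ end, miR-181b-5p differs from miR-181a-5p by the substitutions A9U, C10U and A21G and by a longer 3′ end (24 bases against 23). miR-181d-5p differs from miR-181b-5p by C12U and by a shorter 3′ end, and miR-181c-5p is 1 edit away from miR-181a-5p with 22 bases. The family thus holds an a/c pair and a b/d pair. No label or file header used here says how reads were divided between such close sequences, so each member is uncertain against its near copy, a against c and b against d most of all.

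The 6 precursors lie in 3 pairs in the GENCODE M21 annotation of GRCm38 (the authors' own build was named in no source used here). Mir181a-1 (chr1:137966455-137966541) and Mir181b-1 (chr1:137966639-137966718) lie 97 bases apart on the plus strand, in an exon of the long noncoding gene A430106G13Rik and in an intron of the noncoding Gm4258. Mir181a-2 (chr2:38852735-38852810) and Mir181b-2 (chr2:38853830-38853918) lie 1019 bases apart on the plus strand, opposite an intron of Nr6a1, an orphan nuclear receptor gene, and Mir181b-2 also lies opposite an exon of the unclassified Gm44144. Mir181d (chr8:84178716-84178787) and Mir181c (chr8:84178873-84178961) lie 85 bases apart on the minus strand, in an intron of Nanos3, a germ cell gene. Both a/b pairs make the same mature miR-181a-5p and miR-181b-5p, so counts of the 5p arms do not separate the loci on chromosomes 1 and 2.

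TMV libraries held 112357 to 170571 counts, C26-bearing plasma libraries 9828 to 76376 and control plasma libraries 7962 to 131385. The plasma libraries stood apart by miR-5119. It held 26.6% to 58.7% of counts in C26-bearing replicates 1 to 4, 46.1% in control replicate 4 and at most 2.55% in the other 5. S numbers in the descriptions ran from 18 to 22 in the libraries rich in miR-5119. They were 15 to 17 in the other controls and 23 and 24 in the other C26-bearing libraries. All controls thus carry lower S numbers than all C26-bearing libraries. What these numbers stand for is not stated, and group cannot be told apart from their order. Control replicate 4, with 7962 counts, and C26-bearing replicate 4, with 9828, were the shallowest. The labels do not say whether libraries stand for separate animals or cultures, so the spread between libraries may be partly technical. A count of 0 allows up to 3 counts, which was 377 CPM, the count after each library is scaled to one fixed total, in control replicate 4 and 22.8 CPM in control replicate 3. These floors, and the intervals below, cover only the error of counting.

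In vesicles from cultured C26 cells the 4 members together held 0.234% ± 0.0428 (SD, n = 3) of counts. miR-181b-5p was the leading member. Its counts were 204, 101 and 169 in replicates 1 to 3, against 152, 78 and 144 for miR-181a-5p. In each of the 3 libraries b exceeded a, and the a to b ratio was 0.745, 0.772 and 0.852. miR-181d-5p had 57, 46 and 59 counts and miR-181c-5p 1 count in each library. Among all miRNAs of a library, ordered by count, miR-181b-5p ranked between 71 and 82, miR-181a-5p between 80 and 92 and miR-181d-5p between 110 and 122.

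In control plasma the order of a and b was the other way round. miR-181a-5p had 212, 134, 264 and 3 counts in replicates 1 to 4 and miR-181b-5p 28, 18, 30 and 1. The a to b ratio was 7.57, 7.44 and 8.80 in the first 3 replicates, a narrow range, and 3.0 in replicate 4, where it rests on 4 counts. In those 3 controls miR-181a-5p ranked between 47 and 52 and in replicate 4 it ranked 95. miR-181d-5p had 12, 6, 31 and 0 counts and miR-181c-5p none. The 4 members held 0.195% ± 0.103 (SD, n = 4) of control plasma counts.

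In C26-bearing plasma the family was thin but kept miR-181a-5p ahead of miR-181b-5p in every library. For replicates 1 to 6 in turn, miR-181a-5p had 6, 54, 20, 4, 28 and 5 counts and miR-181b-5p had 1, 19, 5, 2, 3 and 0. The a to b ratio ran from 2.00 to 9.33, with a median of 4.00, over the 5 libraries with any b. The 4 members held 0.0746% ± 0.0436 (SD, n = 6) of counts. Taken over totals that leave out miR-5119, this became 0.115% ± 0.0713, against 0.207% ± 0.0836 for control plasma.

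**Figure D1:**
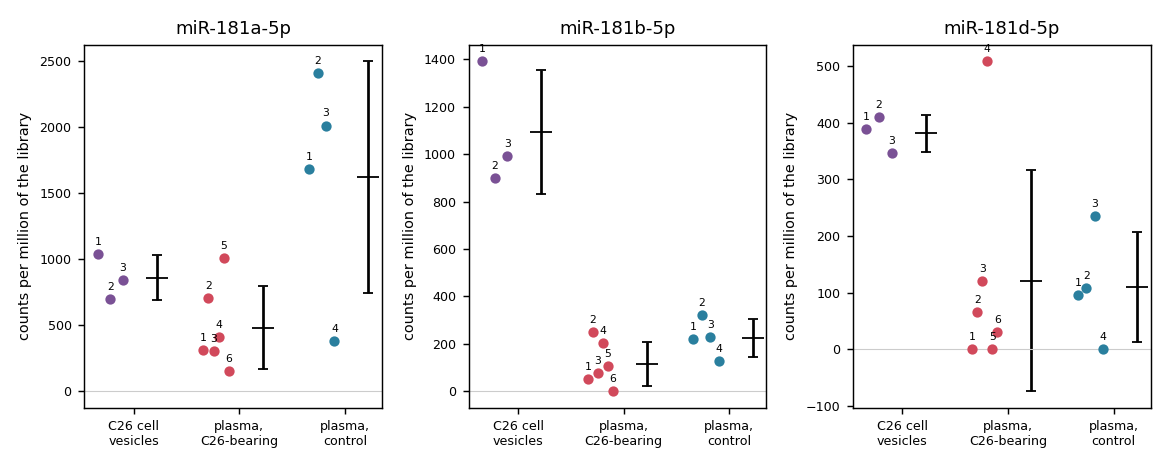
Level of miR-181a-5p, miR-181b-5p and miR-181d-5p in CPM (vertical axis, linear), by group. Each numbered point is a library and the bar beside it is the mean with the SD. Control replicates 1 to 3 lie highest for a, the 3 TMV libraries lie above all plasma libraries for b, and C26-bearing replicate 4 has the highest d level from only 5 counts.

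The share of a within a plus b puts the 3 materials on 1 scale that depends on neither depth nor scaling between libraries. It was 42.7%, 43.6% and 46.0% in TMVs (mean 44.1% ± 1.71, SD, n = 3). Upper ends of the 95% Wilson intervals there were 47.9%, 50.9% and 51.5%, so those of replicates 2 and 3 included equal counts. Control plasma had 88.3%, 88.2%, 89.8% and 75.0% (mean 85.3% ± 6.92, SD, n = 4). C26-bearing plasma ran from 66.7% through a median of 82.9% to 100% (mean 82.8% ± 11.9, SD, n = 6). The lowest plasma value, in C26-bearing replicate 4, lay above the highest TMV value. TMVs and plasma stand in separate count tables, so material cannot be told apart here from how the libraries were made or counted. The separation was not set against that of other pairs of miRNAs. The 95% Wilson interval of that lowest value, on 6 counts, ran from 30.0% to 90.3% and so reached below the TMV shares. The best-counted C26-bearing library, replicate 2 with 73 counts, had 74.0% (62.9% to 82.7%), and the best-counted control, replicate 3 with 294 counts, had 89.8% (85.8% to 92.8%). With the counts of each group pooled, the share was 79.6% (72.4% to 85.3%) in C26-bearing and 88.8% (86.3% to 91.0%) in control plasma, where replicate 2 supplied 73 of the 147 C26-bearing counts. The means of the plasma groups lay within 1 SD of each other. In libraries poor in miR-5119 the C26-bearing shares were not the lower ones. They were 90.3% and 100%, on 31 and 5 counts, against 88.2% to 89.8% in controls. Libraries rich in miR-5119 had 66.7% to 85.7% in C26-bearing plasma and 75.0% in the single control. The part of miR-5119 in the pooled difference was not tested.

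**Figure D2:**
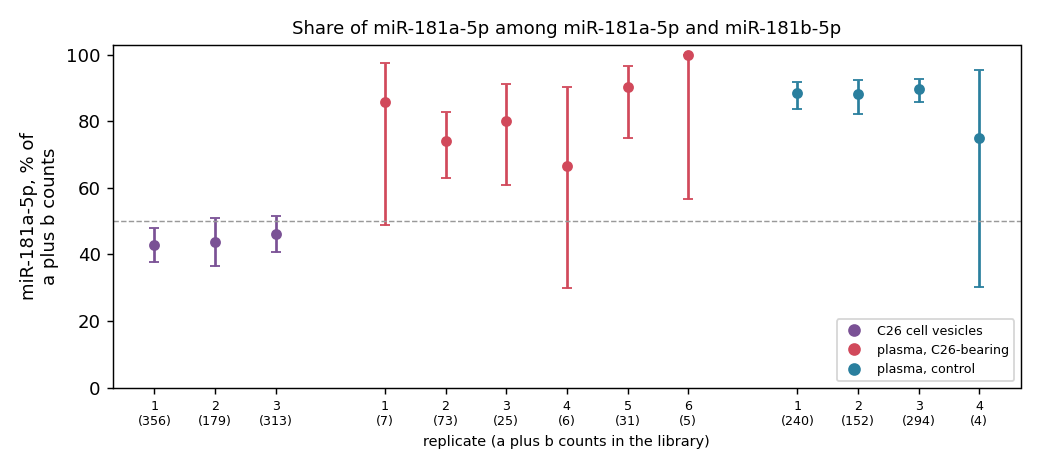
Share of miR-181a-5p in the counts of miR-181a-5p plus miR-181b-5p (vertical axis, percent) in each of 13 libraries, with 95% Wilson intervals for counting error and the number of counts in brackets. The TMV points sit between 42.7% and 46.0%, below the dashed line at equal counts, which the intervals of TMV replicates 2 and 3 cross. The plasma points sit between 66.7% and 100%.

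The b/d side of the family made up most of it in TMVs and little of it in control plasma. In pooled TMV counts a held 36.9%, b 46.8%, c 0.296% and d 16% of the 1013 family counts. In control plasma the shares of 739 family counts were 82.9% for a, 10.4% for b and 6.63% for d, with no count of c. In C26-bearing plasma the shares of 172 family counts were 68.0%, 17.4%, 3.49% and 11.0% for a, b, c and d. The d share of the family differed most among the C26-bearing libraries, from 0% in replicates 1 and 5 to 41.7% in replicate 4, where d had 5 counts against 4 for a. All 6 plasma counts of miR-181c-5p fell in C26-bearing replicates 2, 3 and 4, which are rich in miR-5119. With c at 3 counts or fewer in every library, no fold is given for it.

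**Figure D3:**
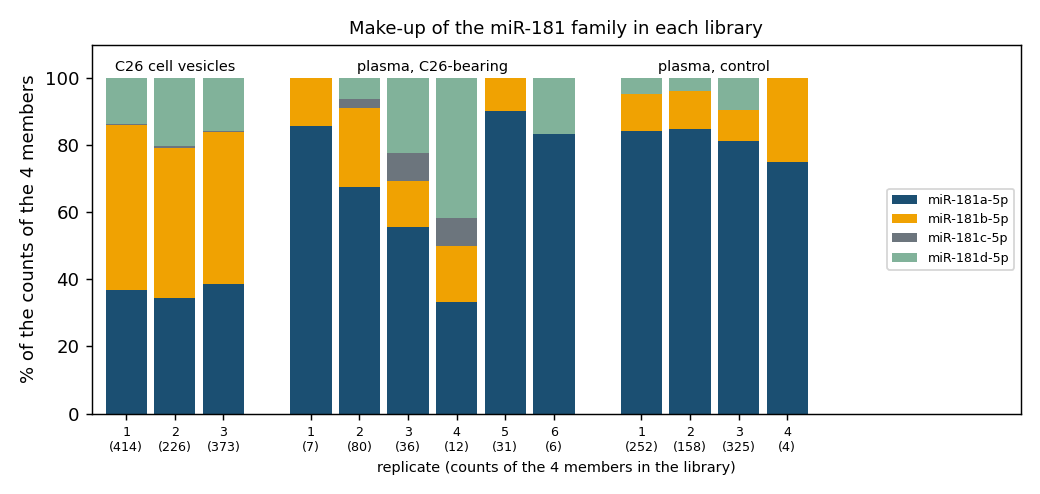
Make-up of the family in each library, as the percent of the counts of the 4 members (vertical axis), with the number of counts in brackets. In the TMV bars b is the largest part and d is visible throughout, while a fills most of the control bars and C26-bearing replicates 3 and 4 hold the largest plasma parts of d.

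The levels of each member can be ordered across the 3 materials in CPM. TMVs and plasma stand in separate count tables, and no label used here names a sequencing run. A difference between TMVs and plasma therefore cannot be told apart from one in how the libraries were made or counted. miR-181a-5p was highest in control plasma (1618 ± 878 CPM, SD, n = 4), then TMVs (859 ± 172, n = 3), then C26-bearing plasma (481 ± 316, n = 6). Neighbours in this order overlapped: control replicate 4 lay below all TMV libraries, and C26-bearing replicates 2 and 5, at 707 and 1006 CPM, lay inside the TMV range of 694 to 1037. These positions depend on miR-5119, which takes up much of some plasma libraries. Over totals without it, the mean miR-181a-5p shares were 0.171% in control plasma, 0.0859% in TMVs and 0.0697% in C26-bearing plasma. Control replicate 4, at 0.0699%, then lay inside the TMV range of 0.0694% to 0.104%, and C26-bearing replicate 2, at 0.115%, lay above it. miR-181b-5p was highest in TMVs (1094 ± 262 CPM, lowest 899), then control plasma (225 ± 80.5, highest 323), then C26-bearing plasma (115 ± 94.4, highest 249), and the plasma groups overlapped. All 3 TMV libraries lay above all 10 plasma libraries for b, as they did for 40.7% of the 194 miRNAs with at least 100 counts over all libraries. Among the same miRNAs 12.4% lay below all plasma libraries, and miR-181a-5p was in neither class. These 2 percentages rest on CPM that include miR-5119 and were not computed without it. miR-181d-5p stood at 381 ± 32.4 CPM in TMVs, 121 ± 195 in plasma of C26-bearing mice and 110 ± 96.9 in that of controls, with wide overlap of the plasma groups.

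The study's second aim compares plasma of C26-bearing and control mice. The level of miR-181a-5p scaled by the trimmed mean of M values (TMM) was 1863, 2065, 1490 and 518 CPM in control replicates 1 to 4 (mean 1484 ± 687, SD). In C26-bearing plasma it ran from 175 through a median of 441 to 884 CPM (mean 490 ± 255, SD, n = 6). Control replicates 1 to 3 lay above all 6 C26-bearing libraries, and control replicate 4 lay among them. A pattern of at least 3 controls above all C26-bearing libraries held for 4.62% of the 130 miRNAs in the test.

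The fit across the plasma table gave miR-181a-5p a log2 fold change, C26-bearing minus control, of -1.61 (SE 0.56). It was the sixth lowest of the 130 miRNAs that passed the low-count filter, whose median was 0.01, and it stood in place 80 by mean level. In edgeR (quasi-likelihood, adjusted p under 0.05), 0 of 130 miRNAs were called (0%), while 15 had an unadjusted p under 0.05. DESeq2 called 4 (3.08%) without miR-181a-5p, and limma voom with quality weights called 17 (13.1%) with miR-181a-5p among them. Nothing is read from these calls for a member chosen on this contrast.

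The size of the miR-181a-5p difference was not alike in the plasma libraries rich and poor in miR-5119, although the gap between these parts was not itself tested. Among the 5 libraries poor in miR-5119, the 3 controls stood at 1490 to 2065 TMM-scaled CPM and C26-bearing replicates 5 and 6 at 884 and 175. There the log2 fold change was -1.77 (SE 0.73). Among the 5 rich in miR-5119, the single control stood at 518, on 3 counts, inside the C26-bearing range of 322 to 677. There it was -0.19 (SE 0.91), with the lone control assumed to vary like the other group. With the part as a term in the fit the value was -1.26 (SE 0.69). The part of miR-5119 in the difference was not tested.

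**Figure D4:**
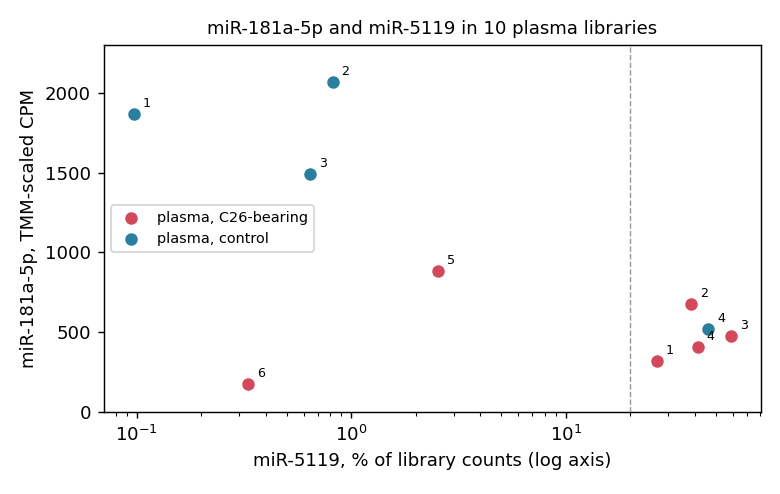
TMM-scaled level of miR-181a-5p (vertical axis, CPM) against the share of miR-5119 in the library (horizontal axis, percent, log scale) in 10 plasma libraries, numbered by replicate. Left of the dashed line at 20% the 3 controls lie at 1490 CPM or more, and right of it the single control, at 518 CPM, lies among the C26-bearing libraries.

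miR-181b-5p, miR-181c-5p and miR-181d-5p did not pass the low-count filter, so 1 of 4 members was tested. miR-181b-5p reached the minimum of 227 CPM in 3 plasma libraries where 4 are needed, and miR-181d-5p reached it in 2. TMM-scaled levels of miR-181b-5p were 246, 277, 169 and 173 CPM in control replicates 1 to 4, and in C26-bearing plasma they ran from 0 through a median of 107 to 238. The groups overlapped. In a fit with no filter, over 955 miRNAs with a median of 0.88 and 0.419% called, miR-181b-5p stood at -1.0 (SE 1.15) on the log2 scale and miR-181a-5p at -1.78 (SE 0.89). Within the libraries poor in miR-5119 the log2 difference was -2.37 (SE 1.45) for miR-181b-5p and within those rich in it 0.44 (SE 2.19), where the control rests on 1 count. miR-181d-5p had -0.07 (SE 1.21) in the unfiltered fit, and its sign changed with the scaling (0.46 with relative log expression, RLE) and with single libraries left out (-1.01 to 0.43). Its value was -2.99 (SE 2.08) in the libraries poor in miR-5119. The fit gave 5.32 (SE 4.49) in those rich in it, where the control had 0 counts, so this is no bound.

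**Figure D5:**
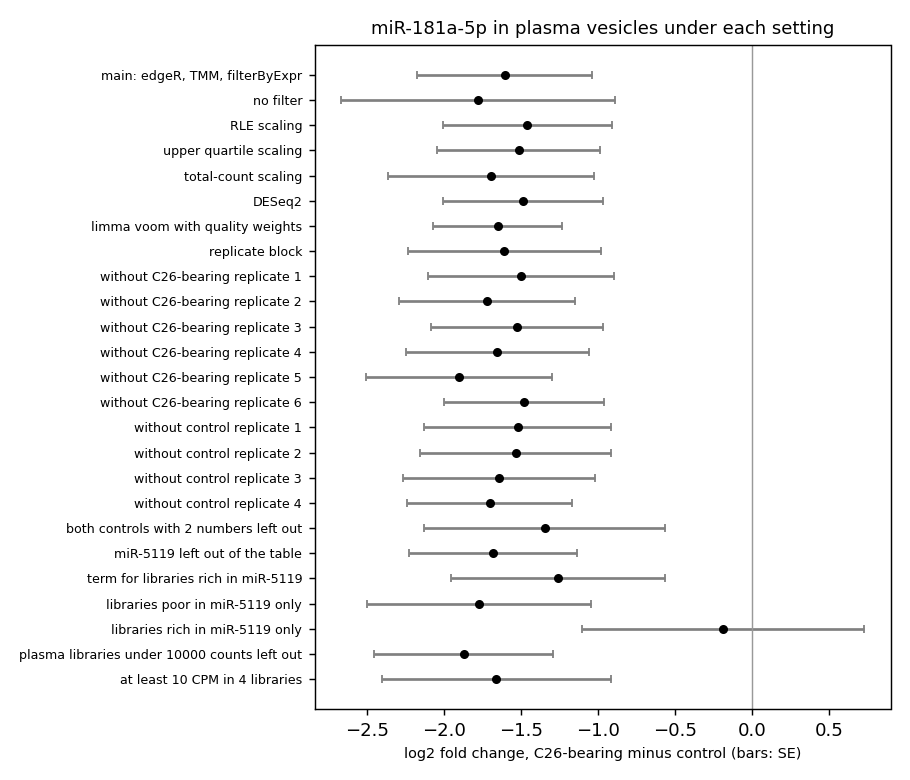
Log2 fold change of miR-181a-5p, C26-bearing minus control (horizontal axis), under each setting of the fit, with the SE as bars. All values lie below 0, and the value from libraries rich in miR-5119, at -0.19, lies nearest to 0.

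The 3p arms come from the other side of the same hairpins, are usually degraded, and differ between loci. The pair from Mir181a-1 and Mir181a-2 is shown because only the former was counted, with the seed in capitals.
miR-181a-1-3p: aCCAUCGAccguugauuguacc
miR-181a-2-3p: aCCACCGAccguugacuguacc
They differ by U5C and U16C. The Mir181a-1 hairpin shows both of its arms in capitals.
Mir181a-1: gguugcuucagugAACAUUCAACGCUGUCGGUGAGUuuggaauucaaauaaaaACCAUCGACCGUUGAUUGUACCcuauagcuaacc

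miR-181a-1-3p is the arm of the chromosome 1 locus. It shares its seed with miR-181c-3p, from chromosome 8, and how reads were divided between these close sequences is not stated. miR-181a-1-3p had 47 counts in all, of which 43 were in C26-bearing plasma, 3 in control plasma and 1 in TMVs. C26-bearing replicates 1 to 3 had 6, 3 and 34 of them and replicates 4 to 6 none, while control replicates 3 and 4 had 2 and 1. In C26-bearing replicate 3 the 3p arm exceeded its 5p arm, 34 counts against 20, and in replicate 1 both had 6. The libraries rich in miR-5119 held 44 of its 46 plasma counts, and the part of miR-5119 in this was not tested. The arms miR-181a-2-3p, miR-181b-1-3p, miR-181b-2-3p and miR-181d-3p had 0 of 982247 counts over all libraries, which allows up to 3.05 CPM each. miR-181c-3p had 8 counts. No 3p arm passed the low-count filter, so none was tested.

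The miRNAs whose plasma profile was most like that of miR-181a-5p were found by the SD, over 10 libraries, of the log2 ratio of the 2 counts, each with 0.5 added. The smallest SDs were 0.74 for miR-200a-3p, an epithelial miRNA, 0.86 for miR-30a-3p, 0.89 for miR-140-5p, a cartilage miRNA, 0.91 for miR-194-5p, found in liver and gut, and 0.92 for miR-214-3p. The median over the tested miRNAs was 1.62. miR-181b-5p itself had 0.90 with 3 tested miRNAs closer, while miR-181d-5p had 1.73 and 71 closer. For miR-181b-5p the nearest were miR-1843a-5p (0.68), miR-200a-3p (0.79), miR-127-3p (0.89), miR-541-5p (0.90) and miR-181a-5p (0.90), with a median of 1.70. These libraries share the miR-5119 parts and a wide range of depth.

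Lists of miRNAs from cell types that could feed plasma vesicles were set beside the member values, with medians to be read against 0.01 over all 130 tested. In every list 0 members were called by edgeR. The 9 lymphoid and myeloid miRNAs, the compartment in which miR-181a is best known, had 7 tested, 6 above 0 and 1 below, a median log2 fold change of 0.29 and a summed share of 0.462% to 1.51% in C26-bearing and 0.882% to 1.18% in control plasma. In that list miR-142a-3p had 1.98 (SE 0.91, edgeR adjusted p = 0.395) and miR-146a-5p, induced by inflammatory signalling, -1.18 (SE 0.60, edgeR adjusted p = 0.441). The 7 platelet and endothelial miRNAs had 5 above 0 and 2 below, a median of 0.38 and shares of 1.54% to 3.15% and 1.26% to 3.11%. Its members of smallest p were miR-126a-5p at 3.23 (SE 1.38, edgeR adjusted p = 0.395) and miR-191-5p at 0.75 (SE 0.40, edgeR adjusted p = 0.488).

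Besides miR-181a-5p, 4 of the 6 lists had a smaller median share of all counts in C26-bearing than in control plasma. They were liver, red cell, neural and, by little, lymphoid and myeloid (0.875% against 0.971%). These totals include miR-5119, whose median was 32.5% of counts in C26-bearing and 0.730% in control plasma. A larger miR-5119 part lowers every other share, and list shares without it were not computed. The tested lymphoid and myeloid miRNAs had 6 above 0 and 1 below. The liver list had 3 of 4 tested, all below 0 with a median of -0.98, and held 0.830% to 10.3% (median 5.62%) of C26-bearing and 6.71% to 28.3% (median 18.3%) of control counts. miR-122-5p, made by hepatocytes, had -1.92 (SE 0.82, edgeR adjusted p = 0.395) and miR-192-5p -0.98 (SE 0.60, edgeR adjusted p = 0.636). The 5 red cell miRNAs had 2 above 0 and 3 below, a median of -0.03, and held 3.52% to 52.7% (median 6.66%) and 6.02% to 31.3% (median 21.3%). There miR-144-3p had -1.13 (SE 0.54, edgeR adjusted p = 0.400) and miR-16-5p 1.30 (SE 0.90, edgeR adjusted p = 0.651). The part of material from these cell types in the miR-181a-5p difference was not tested.

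The muscle list had 3 of 6 tested, all above 0 with a median of 2.09, and shares of 1.77% to 14.9% in C26-bearing and 0.742% to 4.02% in control plasma. miR-133a-3p had 2.09 (SE 0.85, edgeR adjusted p = 0.395) and miR-206-3p 2.60 (SE 1.15, edgeR adjusted p = 0.395), on the opposite side of 0 from miR-181a-5p. Of the 6 neural miRNAs 1 was tested, miR-128-3p, at -0.69 (SE 0.80, edgeR adjusted p = 0.761). The list held 0.0862% to 1.94% (median 0.295%) of C26-bearing and 0.176% to 2.15% (median 1.04%) of control counts. Of its 5788 plasma counts 5733 were miR-128-3p, while the neuronal marker miR-124-3p had 0 counts in all 13 libraries.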

How the data were processed

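The authors deposited unnormalised counts, 1 whole number per mature miRNA and library, in 2 tables. Per the labels' protocols, vesicles were pelleted from conditioned medium or plasma by successive spins, RNA was isolated with TriPure, and NEBNext small RNA libraries were sequenced. Tools named by the submitters' processing notes are bcl2fastq and cutadapt 1.10, and the aligner, counter and annotation were named in no source used here.

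Groups and replicate numbers come from the titles. Plasma counts were filtered with filterByExpr (minimum count 10), scaled with TMM and fitted with edgeR 4.0.16 (robust quasi-likelihood, Benjamini-Hochberg adjustment) in R 4.3.3. The SE is the log2 fold change over the root of the F statistic. DESeq2 1.42.0 and limma 3.58.1 (voom) were alternatives, with other scalings and filters, a replicate block, libraries left out and the miR-5119 parts (split at 20% of counts). The fit was tested on simulated data. Shares have 95% Wilson intervals from scipy 1.17.1. TMV values enter no fit. Depth ran from 7962 to 170571 counts, so members in shallow plasma libraries rest on few counts.

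The miRNAs named are all rows of the family, the 5 of most similar plasma profile to a and to b, the 2 of smallest p in each list (lymphoid and myeloid, platelet and endothelial, red cell, liver, muscle, neural) and miR-5119. The members and lists were chosen with earlier results of these data known. The overlap counts against all miRNAs were chosen after seeing the data.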

Additional observations from a re-analysis of the deposited data

Results flagged for a closer look

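In 17 sets of 4 or 6 plasma libraries, 1 library stood far from the others of its group in 4, by a gap test. Chance passes it in about 1 of 20 sets of normally spread values, which sets of few counts are not. A set with only 1 value above 0, as for miR-181c-3p below, always passes. The number of sets that passed is therefore not read as an excess. Each of the 4 rests on few counts. miR-181d-5p stood at 509 CPM in C26-bearing replicate 4, from 5 counts in the shallowest library of its group, and the next highest was 121 CPM. miR-181a-1-3p stood at 126 CPM in control replicate 4, from 1 count. miR-181c-3p stood at 23.8 CPM in control replicate 1, from 3 counts, with none in the other controls. The share of miR-181a-5p in a plus b was 75.0% in control replicate 4, from 4 counts, against 88.2% to 89.8% in the other controls.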

How the results depend on the processing

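The log2 fold change of miR-181a-5p stayed below 0 under all 24 alternatives and moved by more than the spread between libraries in 1, to -0.19 in libraries rich in miR-5119. With each library left out in turn it lay between -1.90 and -1.48. For miR-181b-5p (-1.0 with no filter) that range was -1.53 to -0.83, and the values that moved were -2.37 in libraries poor in miR-5119 and 0.44 in those rich in it. The causes were not tested. RLE scaling raised the median of all tested miRNAs from 0.01 to 0.19 and gave miR-181a-5p -1.46. The count of miRNAs called, 0 in the edgeR fit, was 4 with no filter, 4 with DESeq2, 17 with limma voom, 2 once the miR-5119 part was a term, 1 in the rich libraries alone, and between 0 and 1 with each library left out (1 without C26-bearing replicate 2 and 1 without replicate 3). Deviations of same-numbered plasma libraries correlated at -0.39, -0.28, -0.27 and 0.20, and only in replicate 4 was the same-numbered control the best match. C26-bearing replicates 1 to 3 are rich in miR-5119 and control replicates 1 to 3 poor in it. This check therefore cannot tell whether the numbers pair libraries. With a replicate block miR-181a-5p had -1.61, miR-181b-5p -0.84, and 0 miRNAs were called, with 33 instead of 15 at an unadjusted p under 0.05. C26-bearing replicates 5 and 6 have no same-numbered control, so they add nothing to the group difference in that fit. Family shares and a shares of each group moved by less than 1 SD under every alternative run. Upper quartile scaling could not be fitted without a filter. In 4 plasma libraries the a share rests on 7 or fewer counts of a plus b.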
